A study of Homo sapiens with 7 samples.

Results

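The genes described here encode the heterogeneous nuclear ribonucleoproteins (HNRNP symbols), the serine and arginine-rich splicing factors (SRSF), the proteins of the small nuclear ribonucleoproteins (SNRP) and the subunits of splicing factors 3A and 3B (SF3A, SF3B). Their probes were taken by gene symbol alone, and 80 of the 48701 probes on the array matched, for 66 genes. Of these, 70 probes for 60 genes were tested, having been detected (p-value of detection below 0.05) on 3 or more of the 7 arrays. The other 6 genes, HNRNPA1L2, HNRNPA1L3 and the pseudogenes HNRNPA1P20, HNRNPA1P60, HNRNPA1P66 and SF3A2P1, were not detected on enough arrays. The arrays measured MCF-10A, an immortal but not cancerous line of human breast epithelium, in which a lentivirus expressed a short hairpin RNA against Brit1 (shBrit1, 4 arrays) or a scrambled one (shControl, 3 arrays). Both groups were grown in the same medium, harvested 48 h after seeding and called biological replicates by the submitters. The labels name 1 hairpin per group, and the sources used here do not say whether the selected cells were a pool or a clone. Brit1 is known for roles in DNA repair and cell cycle checkpoints, and the question put to the splicing genes is how their RNA levels differed between the 2 groups. Brit1 itself was not analysed here, and the knockdown is taken from the labels.

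Splicing removes introns from new transcripts. Small nuclear ribonucleoproteins, each built on a ring of Sm proteins, recognise the splice sites, and SF3A and SF3B anchor the U2 particle at the branch point. SR proteins mostly promote the use of nearby splice sites, whereas hnRNP proteins coat the nascent transcript and often repress them. Many SR and hnRNP genes tune their own messages through unproductive splicing.

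Splicing factor messages were mostly lower in shBrit1. Of the 60 genes, 33 were called lower and 6 higher (limma, adjusted p under 0.05), with 21 not called. Over all 12372 genes tested, 30.1% were called lower and 29.5% higher. The median log2 difference (shBrit1 minus shControl) was -0.49 over the splicing factor genes and -0.01 over all genes tested. The splicing factors ran from -2.30 for SNRPD1 to 0.81 for HNRNPUL1. Without the pseudogenes, 30 of 52 genes were lower and 4 higher, with a median log2 difference of -0.52. Of those 4, HNRNPA1 and SNRPD2 each had a second probe with a difference of the opposite sign. Calls lower by at least 2-fold numbered 10 of 60, against 9.69% of all genes, and no splicing factor gene was higher by that much, against 9.76% of all genes. The 2 groups of arrays did not overlap in 38 of the 60 genes, against 61.8% of all genes. With median scaling of the arrays in place of quantile normalization, 39 splicing factor genes were lower and 2 higher, so that the share of higher among the calls went from 15.4% to 4.88%. Over all genes that share went from 49.6% to 37%, with 2625 higher and 4479 lower. That scaling moved the median of all genes to -0.15 and that of the splicing factors to -0.73.

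Several measures moved with the groups beside these genes. All 12 proliferation markers examined, among them MKI67 and PCNA, were lower in shBrit1, with a median of -1.37, and their summed linear signal was 34219 to 38740 in shControl and 13866 to 14485 in shBrit1. Their part in the splicing factor result was not tested, and in RNA from whole cultures fewer cells of a kind and less RNA per cell cannot be told apart. Of the 10 markers of mammary epithelium 8 were measured, with 7 detected on all 7 arrays and ITGA6 on 3. Of the 8, 5 were called lower, 0 higher and 3 not called, with log2 differences from -1.72 to 0.21. Over all genes tested 30.1% were lower and 29.5% higher. The summed linear signal of the 8, which weighs the brightest most, was 32708 to 63760 in shControl and 18740 to 19215 in shBrit1. Markers of fibroblasts, endothelium and immune cells were mixed. PDGFRA, PDGFRB, CDH5 and CD3E were detected on 0 arrays, PTPRC on 1 and COL1A2 on 2, while COL1A1, FAP and PECAM1 were detected on 7 and CD14 and KDR on 6. CD14, the 1 immune marker tested, had a log2 difference of 2.68 (1.74 with the authors' deposited log2 values), with a signal of 34.0 to 55.6 in shControl and 249.9 to 355.4 in shBrit1. The summed signal of the fibroblast markers tested was 1242 to 1495 and 934 to 1105, with 1 of the 2 called higher (log2 difference 1.11) and the other lower (-0.55), and that of the endothelial ones 86.1 to 98.0 and 88.8 to 103.9. The part of these cell type markers in the result was not tested. shControl replicate 3 stood apart from the other controls. The SD of its difference from them across the splicing factor genes was 0.50 to 0.52 log2, against 0.209 between shControl replicates 1 and 2 and 0.118 to 0.231 between shBrit1 arrays. It lay more than 0.5 from the mean of the other 2 controls in 20 of 60 splicing factor genes (33.3%, 17 of them downwards) and in 24.1% of all genes. Without it, 40 splicing factor genes were lower and 6 higher. All 33 lower and all 6 higher calls were kept, and 7 genes were added to the lower ones, among them HNRNPH1, HNRNPK and SNRPC. Over all genes, 34.8% were then lower and 34.4% higher. The deposited signal columns of shControl replicates 1 and 2 are headed CT10A1.A and CT10A2.A, and that of replicate 3 CT10AB. What the letters stand for is not stated. Tests without replicate 3 rest on 2 controls, and how independent these 2 are is known only from the submitters' word.

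**Figure D1:**
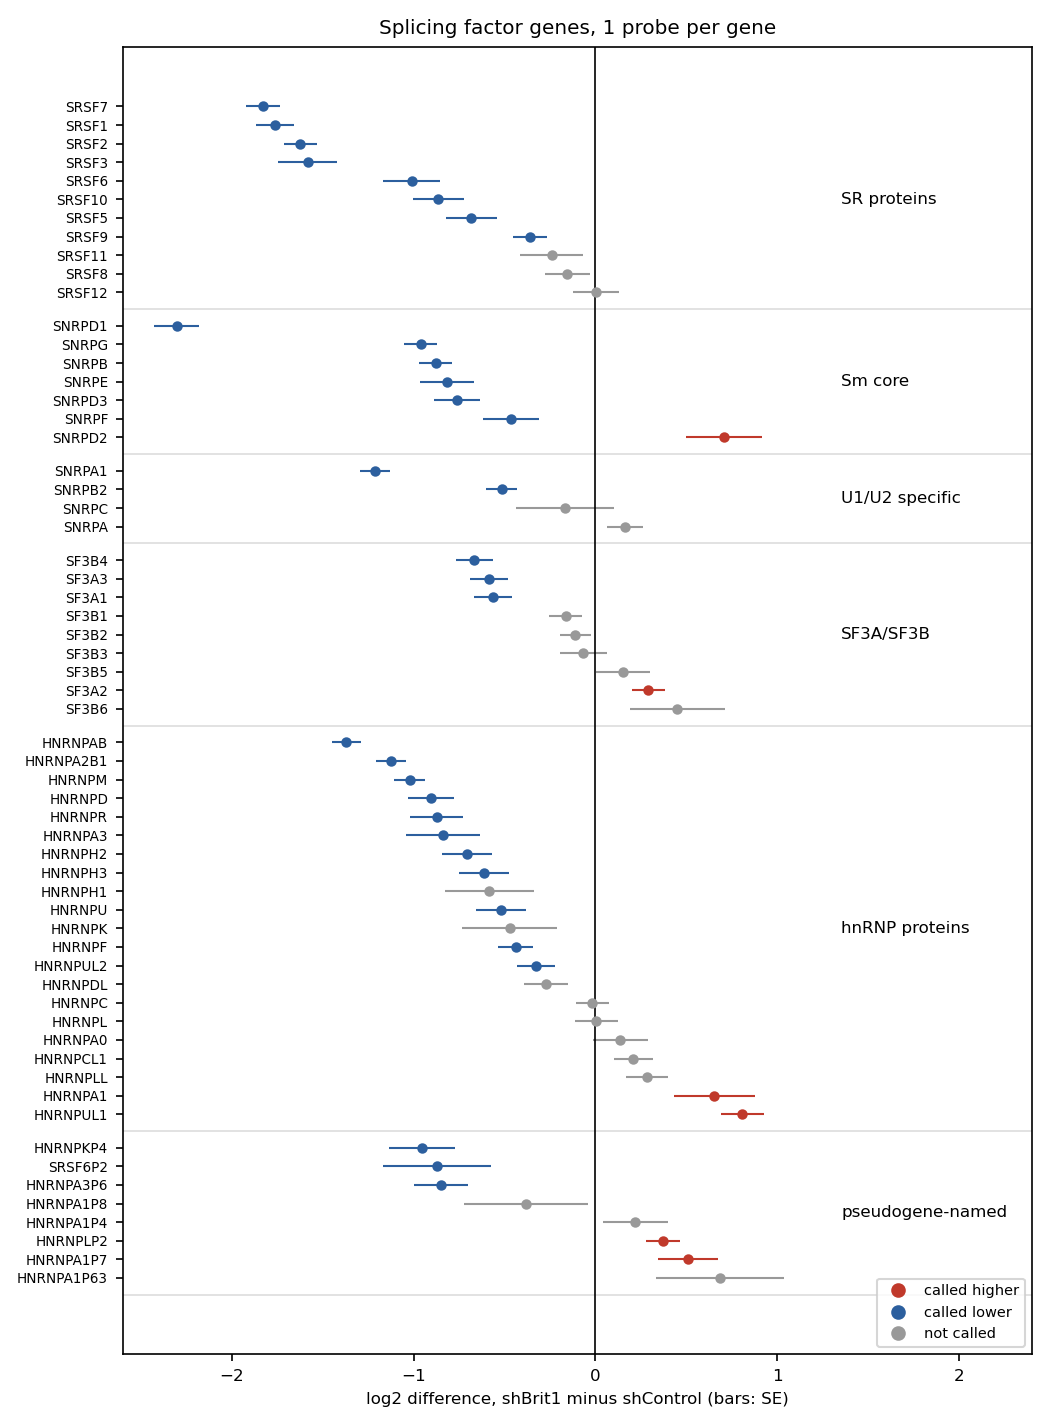
The log2 difference (shBrit1 minus shControl, horizontal axis) of each of the 60 tested splicing factor genes, with its standard error as a bar, 1 probe per gene, grouped by role. Blue points were called lower, red higher and grey not called; the SR proteins and the Sm core lie mostly left of 0, while SF3A and SF3B subunits lie on both sides.

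The upstream sequences of 5 members are shown because the probes used for these genes were called in different directions. SRSF1, SRSF3 and SRSF7 were 2.99-fold to 3.55-fold lower in shBrit1, while HNRNPUL1 and the brighter probe of SNRPD2 were called higher. The second SNRPD2 probe had a log2 difference of -0.53 that was not called, and the direction of that gene is uncertain. Each run is the 250 bases before the start of the gene in RefSeq (GRCh38.p14), written 5′ to 3′ on the strand of the gene. Capitals mark matches, on either strand, to the CCAAT box (CCAAT), the GC box (GGGCGG) and the TATA box (TATAAA). The E-box (CACGTG) was searched too and is in none of the 5.
SRSF1 (chr17:58007247-58007496, minus strand): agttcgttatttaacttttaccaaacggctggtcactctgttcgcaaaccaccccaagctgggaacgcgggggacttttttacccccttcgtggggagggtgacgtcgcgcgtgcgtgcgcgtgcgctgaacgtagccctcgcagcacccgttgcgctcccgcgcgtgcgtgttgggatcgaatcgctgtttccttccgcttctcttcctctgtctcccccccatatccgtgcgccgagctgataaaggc
SRSF3 (chr6:36594112-36594361, plus strand): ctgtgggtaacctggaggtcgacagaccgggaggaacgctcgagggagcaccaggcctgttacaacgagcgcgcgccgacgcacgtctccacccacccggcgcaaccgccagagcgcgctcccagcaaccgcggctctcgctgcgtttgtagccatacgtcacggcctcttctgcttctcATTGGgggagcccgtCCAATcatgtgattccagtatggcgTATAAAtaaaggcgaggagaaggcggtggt
SRSF7 (chr2:38751495-38751744, minus strand): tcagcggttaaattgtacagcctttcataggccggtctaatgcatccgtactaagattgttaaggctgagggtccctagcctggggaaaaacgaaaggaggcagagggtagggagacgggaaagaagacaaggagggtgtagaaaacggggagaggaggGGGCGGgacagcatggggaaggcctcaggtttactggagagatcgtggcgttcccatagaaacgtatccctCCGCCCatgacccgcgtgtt
SNRPD2 (chr19:45692317-45692566, minus strand): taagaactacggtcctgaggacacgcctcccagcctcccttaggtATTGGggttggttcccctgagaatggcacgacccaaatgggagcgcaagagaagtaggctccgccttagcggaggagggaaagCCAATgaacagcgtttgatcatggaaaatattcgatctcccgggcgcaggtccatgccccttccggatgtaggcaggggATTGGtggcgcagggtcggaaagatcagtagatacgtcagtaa
HNRNPUL1 (chr19:41262307-41262556, plus strand): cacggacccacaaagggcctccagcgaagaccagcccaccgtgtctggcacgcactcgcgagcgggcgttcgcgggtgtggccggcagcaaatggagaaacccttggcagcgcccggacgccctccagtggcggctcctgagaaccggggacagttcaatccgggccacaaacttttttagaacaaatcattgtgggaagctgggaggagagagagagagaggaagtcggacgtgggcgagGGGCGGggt
SRSF3 held 2 CCAAT boxes, 66 to 70 and 51 to 55 bases before the start, and a TATA box 25 to 30 bases before it. SRSF7 held 2 GC boxes, SRSF1 none of the 4 motifs, SNRPD2 3 CCAAT boxes and HNRNPUL1 1 GC box. Since SRSF1 held none, no motif could be common to the 3 SR genes. A window of this kind was matched for 48 of the 52 tested members that are not pseudogenes, all but HNRNPA1, SF3B3, SNRPD1 and SRSF2. A CCAAT box was present in 43.8% of the 48 and in 33.0% of all 27305 such windows, a GC box in 58.3% against 42.3%, a TATA box in 12.5% against 11.1% and an E-box in 14.6% against 6.49%. Among members called lower, 5 of 28 windows held an E-box and 12 of 28 a CCAAT box, and among the others 2 of 20 and 9 of 20. A GC box was in 15 of 28 and 13 of 20, and a TATA box in 3 of 28 and 3 of 20. The 27305 windows were taken whether or not their genes were tested here, whereas the 48 belong to tested genes. The motif counts are descriptions of letters in a window and not of binding.

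SR protein genes had the lowest median of the role groups. They bind exons through RNA recognition motifs and recruit the spliceosome through their arginine and serine-rich tails. Of the 11 measured, 8 were lower and 0 higher, with a median log2 difference of -0.86, and 5 of them were lower by at least 2-fold. The counts without shControl replicate 3 were 9 lower and 0 higher.

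SRSF7, which binds exons and couples splicing to export of the message, read 10.92, 10.89 and 10.68 on the log2 signal scale in shControl and 9.09, 8.97, 8.96 and 8.99 in shBrit1. Every shBrit1 array lay below every control, and the gene was 3.55-fold lower (log2 difference -1.83, SE 0.09, adjusted p = 1.12e-06, limma). SRSF1, the first SR protein described and a regulator of splice site choice, stood at 13.63, 13.49 and 13.59 in shControl and at 11.70, 11.90, 11.68 and 11.96 in shBrit1. The groups were again separate, by 3.39-fold (log2 difference -1.76, SE 0.10, adjusted p = 2.00e-06, limma).

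SRSF2, which marks exons and also acts in transcription elongation, was 13.24, 13.31 and 13.08 in the controls and 11.51, 11.62, 11.58 and 11.63 in the knockdown cells, or 3.08-fold lower (log2 difference -1.62, SE 0.09, adjusted p = 1.65e-06, limma). SRSF3, the smallest SR protein, was 10.89, 10.89 and 10.25 in shControl and 8.98, 9.22, 9.08 and 9.11 in shBrit1. The third control was the lowest of its group but stayed above all shBrit1 arrays. The fold was 2.99 (log2 difference -1.58, SE 0.16, adjusted p = 4.93e-05, limma), and 3.47 without that control.

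SRSF6, SRSF10, SRSF5 and SRSF9 fell less, by 2.02-fold, 1.82-fold, 1.61-fold and 1.29-fold. SRSF6 read 13.08, 12.88 and 13.57 in shControl and 12.00, 12.24, 12.21 and 12.21 in shBrit1, and shControl replicate 3 was the highest array for it and for SRSF5. Without that array SRSF6 fell 1.76-fold, SRSF5 1.42-fold, SRSF9 1.23-fold and SRSF10 1.997-fold. The fall of SRSF6 was then below 2-fold. SRSF9, the member closest in build to SRSF1, was 12.99 ± 0.11 (SD, n = 3) in shControl and 12.63 ± 0.07 (SD, n = 4) in shBrit1, a log2 difference of -0.36 beside the -1.76 of SRSF1.

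SRSF11, SRSF8 and SRSF12 did not pass the test. SRSF11 had a log2 difference of -0.24 (SE 0.17) and SRSF8 one of -0.15 (SE 0.12), and SRSF8 was called lower without shControl replicate 3 (log2 difference -0.29, adjusted p = 0.0143, limma). SRSF12, an SR-related protein that acts as a repressor, was detected on 1 of 3 control and 3 of 4 shBrit1 arrays. Its values of 5.04, 4.98 and 5.47 against 5.17, 5.19, 5.23 and 5.08 overlapped (log2 difference 0.00, SE 0.13).

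**Figure D2:**
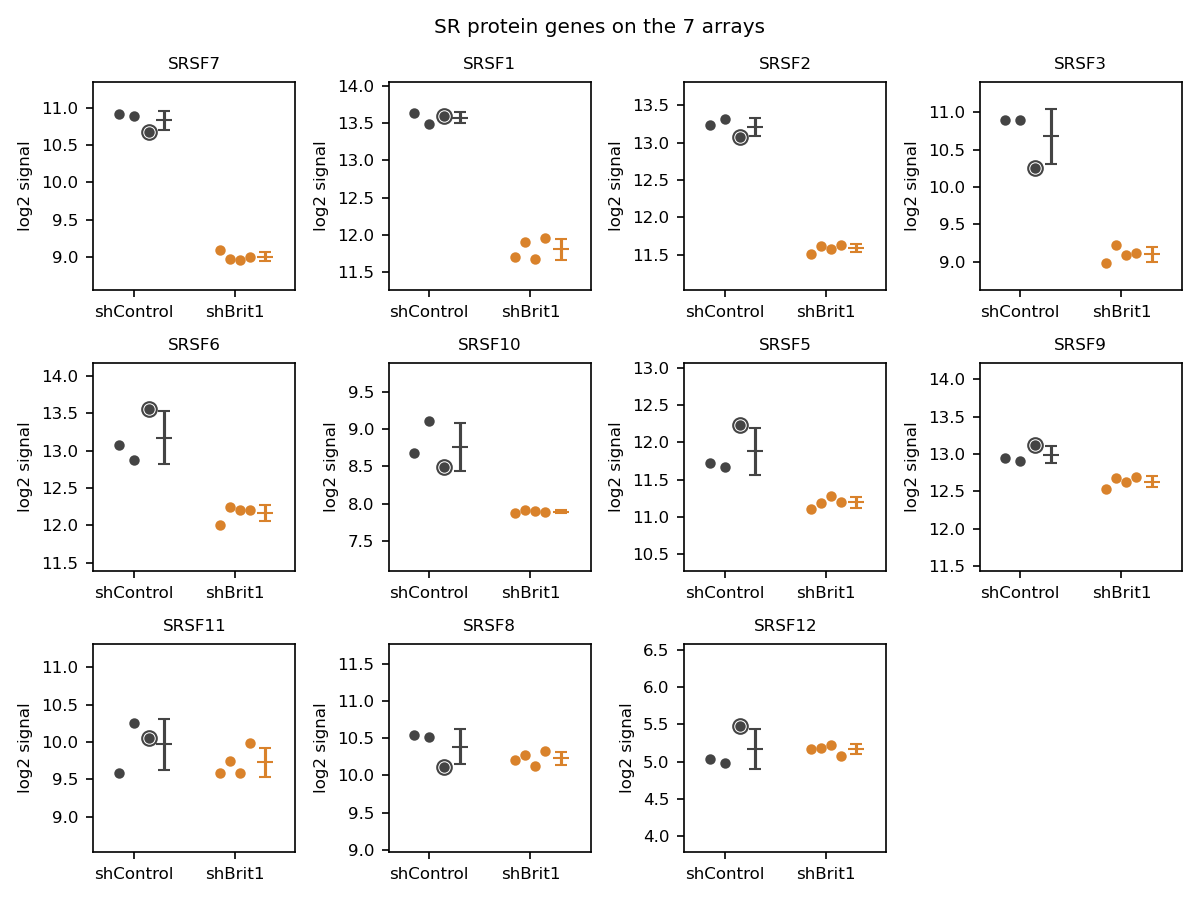
Normalized log2 signal (vertical axes) of the 11 SR protein genes on each shControl (grey, 3 points) and shBrit1 (orange, 4 points) array, with the mean and SD at the right of each group; the ringed grey point is shControl replicate 3. In SRSF7, SRSF1, SRSF2 and SRSF3 the 2 groups are separated by more than 1 log2 unit, while in SRSF11, SRSF8 and SRSF12 they overlap.

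The Sm core was lower in 6 of its 7 genes and higher in 1. Sm proteins form a ring of 7 subunits around the RNA of each spliceosomal particle other than U6, one copy of each per ring. The median log2 difference was -0.82. SNRPD1, which encodes subunit D1, had the largest fall of all splicing factor genes. It read 9.57, 9.55 and 9.32 in shControl and 6.96, 7.33, 7.09 and 7.33 in shBrit1, so that the groups lay about 2 log2 units apart at their nearest. The gene was 4.94-fold lower (log2 difference -2.30, SE 0.12, adjusted p = 1.31e-06, limma). With the authors' deposited log2 values, to which no background correction was applied here, the log2 difference was -1.91.

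The other Sm genes that fell did so by less. SNRPG was 13.97, 14.08 and 14.20 in shControl and 13.09, 13.17, 13.13 and 13.10 in shBrit1, or 1.95-fold lower. SNRPB, the gene of subunits B and B′, fell 1.84-fold, and its second probe gave 1.83-fold. SNRPE and SNRPD3 fell 1.76-fold and 1.70-fold, and 1.61-fold and 1.74-fold without shControl replicate 3. SNRPF had the smallest difference of the ring. Its values of 12.62, 12.58 and 12.00 in shControl and 12.07, 11.89, 11.91 and 11.88 in shBrit1 overlapped through shControl replicate 3, with a log2 difference of -0.46 (SE 0.15, adjusted p = 0.0309, limma) and of -0.67 without that array. The call was lost without shControl replicate 1 or 2 or shBrit1 replicate 2, 3 or 4 (adjusted p = 0.0701 to 0.112, limma).

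SNRPD2, whose product pairs with D1 in the ring, went the other way on its brighter probe. That probe read 12.77, 12.72 and 11.86 in shControl and 13.25, 13.24, 13.001 and 13.13 in shBrit1, with every shBrit1 array above every control. The difference was 1.63-fold (log2 difference 0.71, SE 0.21, adjusted p = 0.0190, limma). It was 1.33-fold without shControl replicate 3 (log2 difference 0.41, adjusted p = 0.00321, limma), and it was not called with median scaling (log2 difference 0.45, adjusted p = 0.109, limma) or without shBrit1 replicate 1 or 2 (adjusted p = 0.0552 and 0.0501, limma). The second, dim probe of SNRPD2 read 6.67, 6.91 and 5.91 in shControl and 5.79, 5.75, 6.502 and 5.82 in shBrit1. Its groups overlapped and its log2 difference was -0.53 (adjusted p = 0.121, limma), of the opposite sign. Without shControl replicate 3 that probe was called lower (-0.82, adjusted p = 0.00246, limma), so the 2 SNRPD2 probes were then called in opposite directions and the direction of the gene is uncertain.

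**Figure D3:**
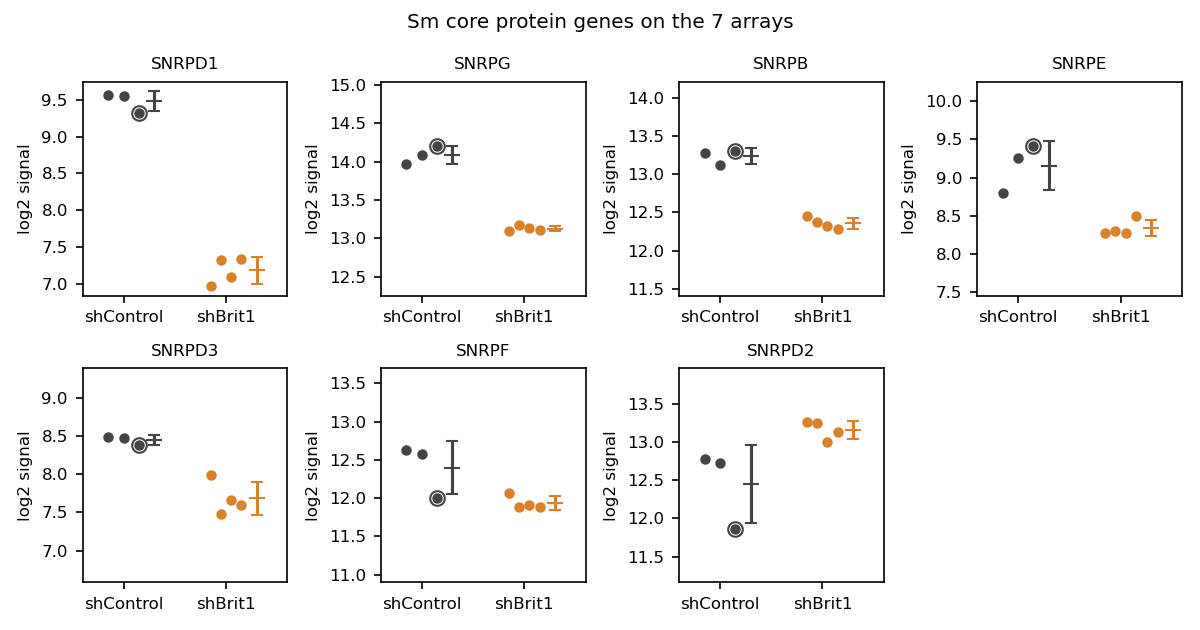
Normalized log2 signal (vertical axes) of the 7 Sm core genes on each shControl (grey, 3 points) and shBrit1 (orange, 4 points) array, with the mean and SD at the right of each group; the ringed grey point is shControl replicate 3. SNRPD1 shows the widest gap, and the brighter probe of SNRPD2 lies higher in shBrit1, by a log2 difference of 0.71.

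The symbol rule matched 4 genes of proteins specific to the U1 and U2 particles. Of these, both U2 genes were lower and both U1 genes were not called on all arrays. SNRNP70, also a U1 gene, did not match the rule and is counted with the U1-associated genes below. SNRPA1, the U2 A′ protein, stood at 12.08, 12.01 and 12.07 in shControl and at 10.81, 10.87, 10.77 and 10.92 in shBrit1, 2.32-fold lower (log2 difference -1.21, SE 0.08, adjusted p = 4.83e-06, limma). Its partner SNRPB2, the U2 B″ protein, fell 1.43-fold on its brighter probe and 1.96-fold on the other. SNRPA, the U1 A protein that binds a stem loop of U1 RNA, read 10.74, 10.67 and 10.48 against 10.92, 10.79, 10.70 and 10.76, with overlapping groups (log2 difference 0.16, SE 0.10, adjusted p = 0.209, limma). With median scaling its sign turned (-0.19). SNRPC, the U1 C protein, which helps U1 hold the 5′ splice site, read 9.82, 10.14 and 8.81 in shControl and 9.54, 9.33, 9.40 and 9.42 in shBrit1. Replicate 3 was the lowest control by more than 1 log2 unit, and without it SNRPC was called lower (log2 difference -0.56, adjusted p = 0.000756, limma). The brighter SNRPB2 probe also had a log2 difference of -0.56 without that array, and 3 of the 4 genes were then lower. The test of U2 against U1 genes itself was not run.

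SF3A and SF3B subunits had the median nearest 0 of the groups that hold no pseudogenes. Of 9 genes 3 were lower and 1 higher, with a median log2 difference of -0.11, and none reached 2-fold. SF3B4, an RNA-binding subunit near the branch point, was 11.36, 11.52 and 11.61 in shControl and 10.79, 10.85, 10.70 and 10.98 in shBrit1. The groups were separate, with a 1.59-fold fall (log2 difference -0.67, SE 0.10, adjusted p = 0.000626, limma). SF3A3 and SF3A1 fell 1.5-fold and 1.48-fold. The third subunit of SF3A, SF3A2, was 10.50, 10.46 and 10.68 in shControl and 10.86, 10.86, 10.78 and 10.85 in shBrit1. This difference of 1.22-fold passed the test (log2 difference 0.29, SE 0.09, adjusted p = 0.0222, limma) but had the opposite sign with median scaling (-0.05), and it was not called without shControl replicate 1 or 2 or shBrit1 replicate 2 or 4 (adjusted p = 0.0549 to 0.0891, limma).

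SF3B1, the scaffold of the complex and the subunit that contacts the branch site, was 11.76, 11.80 and 11.82 in shControl and 11.48, 11.71, 11.71 and 11.62 in shBrit1 on its brightest probe. These groups did not overlap, yet the difference of -0.16 (SE 0.09) was not called (adjusted p = 0.166, limma). A second SF3B1 probe had a log2 difference of -0.42 that was not called on all arrays and was called lower without shControl replicate 3 (-0.72, adjusted p = 2.44e-05, limma), and the dimmest had one of 0.14, not called in either case. SF3B2 (-0.11), SF3B3 (-0.07) and SF3B5 (0.15) were not called either. SF3B3 read 11.97, 11.81 and 11.43 against 11.64, 11.68, 11.73 and 11.64. It was called lower with median scaling (-0.42) and without shControl replicate 3 (-0.22, adjusted p = 0.0474, limma). SF3B6, which touches the branch point adenosine, had a log2 difference of 0.45 (SE 0.26) that was 0.07 without shControl replicate 3.

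Among 21 measured hnRNP genes 11 were lower and 2 higher, with a median log2 difference of -0.47. HNRNPAB, which binds RNA and single-stranded DNA, was the furthest down. Its brighter probe read 14.25, 14.18 and 14.16 in shControl and 12.82, 12.83, 12.88 and 12.78 in shBrit1. That was 2.58-fold lower (log2 difference -1.37, SE 0.08, adjusted p = 2.06e-06, limma), and the second probe gave 3.03-fold. HNRNPA2B1, a repressor of exons that also takes part in RNA transport, was 14.01, 14.11 and 14.13 in shControl and 12.91, 12.93, 12.96 and 13.04 in shBrit1. The groups were separate by about 1 log2 unit, a 2.18-fold fall (SE 0.08 log2, adjusted p = 7.81e-06, limma). HNRNPM fell 2.03-fold, HNRNPD, also known as the AU-rich element binding protein AUF1, 1.87-fold, HNRNPR 1.83-fold and HNRNPA3 1.79-fold. For HNRNPR and HNRNPA3 shControl replicate 3 was the lowest control, and without it they fell 2.06-fold and 2.17-fold. HNRNPD fell 2.07-fold and HNRNPM 1.99-fold without that array.

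Close relatives did not all move alike in size. In the H and F family, which binds runs of guanine, HNRNPH2 and HNRNPH3 were 1.63-fold and 1.53-fold lower and HNRNPF 1.36-fold lower. HNRNPH1 read 12.59, 12.56 and 11.54 in shControl and 11.49, 11.67, 11.55 and 11.87 in shBrit1, so that the third control lay among the shBrit1 arrays. It was not called on all arrays (log2 difference -0.58, adjusted p = 0.0737, limma), and without replicate 3 it was 1.91-fold lower (adjusted p = 2.12e-05, limma). HNRNPK, a poly-cytosine binding protein, behaved alike, with a log2 difference of -0.47 on all arrays and of -0.85 without replicate 3. HNRNPU, the nuclear scaffold attachment factor, and HNRNPUL2 were 1.43-fold and 1.25-fold lower. The HNRNPU probe was dim, with a signal of 91.7 to 114.8 before correction. Its log2 difference was -0.26 with the authors' deposited log2 values, against -0.52 here.

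HNRNPUL1, of the same family as HNRNPU, had the largest rise of the 60 splicing factor genes. It read 9.12, 8.86 and 8.71 in shControl and 9.78, 9.55, 9.76 and 9.73 in shBrit1, 1.75-fold higher (log2 difference 0.81, SE 0.12, adjusted p = 0.000427, limma). HNRNPL, which binds CA repeats, was 9.46, 9.71 and 9.84 against 9.60, 9.61, 9.63 and 9.86 (log2 difference 0.00, SE 0.12), and HNRNPC, which binds uridine tracts, 13.41 ± 0.14 (SD, n = 3) against 13.40 ± 0.03 (SD, n = 4). The relative of HNRNPL, HNRNPLL, was not called (log2 difference 0.28). HNRNPA0 (0.14) and HNRNPDL (-0.27) were not called either, and HNRNPDL was called lower without shControl replicate 3 (-0.35, adjusted p = 0.0186, limma). The low HNRNPCL1, at 4.86, 5.03 and 5.07 in shControl and 5.37, 5.11, 5.07 and 5.23 in shBrit1, was detected on 0 control and 3 shBrit1 arrays and was not called (log2 difference 0.21, adjusted p = 0.133, limma). A further probe, which the platform lists under the older symbol HNRPDL and which was therefore not counted, was looked up after its values were seen. It was 1.94-fold higher in shBrit1 (log2 difference 0.96, adjusted p = 8.74e-05, limma), unlike the probe listed as HNRNPDL. That difference was above the 0.81 of HNRNPUL1. With means of 10.58 in shControl and 11.53 in shBrit1, the HNRPDL probe was also brighter than the HNRNPDL probe (10.53 and 10.25). The direction of HNRNPDL is therefore uncertain.

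HNRNPA1, an abundant repressor of splice sites, gave opposite results on its 2 probes, and the value of the gene is therefore uncertain. The probe with the higher mean read 8.73, 8.59 and 7.75 in shControl and 9.27, 8.89, 8.95 and 8.94 in shBrit1, a 1.57-fold rise (log2 difference 0.65, SE 0.22, adjusted p = 0.0334, limma) that was 1.28-fold without shControl replicate 3. The other read 8.32, 8.14 and 6.30 in shControl and 6.03, 5.88, 5.74 and 5.87 in shBrit1. It was 3.26-fold lower (log2 difference -1.71, SE 0.42, adjusted p = 0.00772, limma), and 5.10-fold lower without replicate 3. The call of the first probe was lost with median scaling (0.42, adjusted p = 0.160, limma) and without any 1 of the 4 shBrit1 arrays (adjusted p = 0.0540 to 0.0937, limma). The sources used here do not say which transcripts each probe binds.

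Probes named for pseudogenes may bind the message of the parent gene, so they are given apart. Of 8 tested, 3 were lower and 2 higher. HNRNPA1P7 was 11.48, 11.42 and 10.80 in shControl and 11.88, 11.75, 11.65 and 11.71 in shBrit1, a log2 difference of 0.51 (adjusted p = 0.0267, limma) that was 0.29 without shControl replicate 3. It was not called with median scaling (0.16) or without shBrit1 replicate 1, 2 or 4. HNRNPA1P63 read 12.09, 12.48 and 10.72 against 12.40, 12.34, 12.38 and 12.67, and HNRNPA1P4 12.65, 12.66 and 11.91 against 12.70, 12.60, 12.65 and 12.56. Neither was called, and in both the only array apart was shControl replicate 3. HNRNPA1P8 read 6.42, 6.68 and 5.23 against 6.19, 5.30, 5.52 and 5.90. It was not called on all arrays (log2 difference -0.38) and was 1.77-fold lower without that control (adjusted p = 0.00402, limma). HNRNPKP4, SRSF6P2 and HNRNPA3P6 were 1.94-fold, 1.83-fold and 1.80-fold lower. SRSF6P2 overlapped through shControl replicate 3 and was 2.50-fold lower without it. HNRNPKP4, for which that array was the highest control, was 1.66-fold lower without it, and HNRNPA3P6 1.78-fold. HNRNPLP2, at 4.83, 4.77 and 4.73 in shControl and 5.02, 5.28, 5.17 and 5.11 in shBrit1, was detected on 0 control and 3 shBrit1 arrays. It passed the test (adjusted p = 0.00851, limma), but as a bound, which counts the dim arrays at no less than the lowest detected signal, it was only at least 1.02-fold higher.

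**Figure D4:**
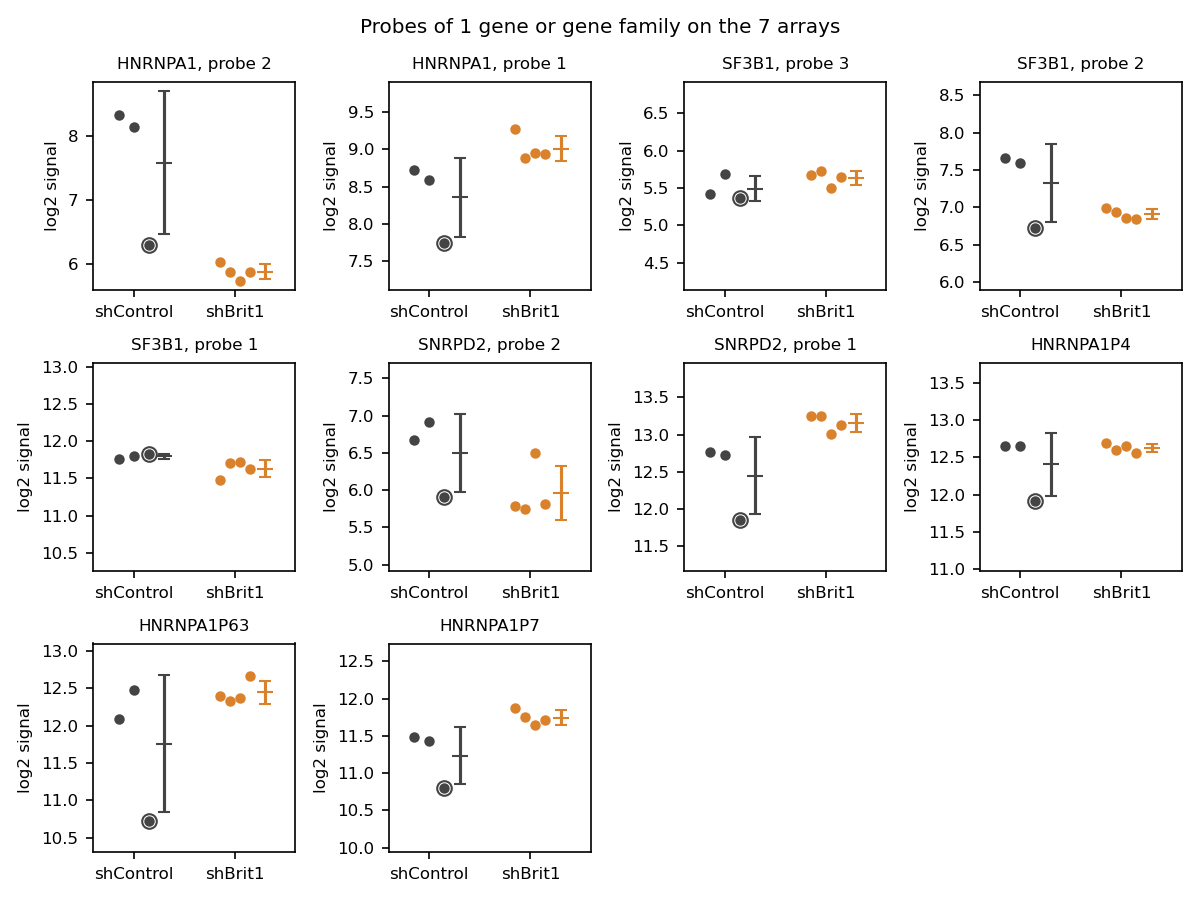
Normalized log2 signal (vertical axes) on each shControl (grey, 3 points) and shBrit1 (orange, 4 points) array for the probes of HNRNPA1, SF3B1 and SNRPD2, numbered from the brightest, and for 3 probes named for HNRNPA1 pseudogenes; bars are the mean and SD, and the ringed point is shControl replicate 3. The 2 HNRNPA1 probes move in opposite directions, and shControl replicate 3 is the lowest control in all panels but the brightest SF3B1 probe.

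In all, 9 genes had more than 1 tested probe, 1 of them, HNRNPA1, with calls in both directions and 3 with differences of both signs. Without shControl replicate 3, 2 had calls in both directions, HNRNPA1 and SNRPD2. For SNRPB, SNRPB2, HNRNPAB and HNRNPM all probes were called lower. The second SNRPE probe had a log2 difference of -0.21 that was not called on all arrays and was called without shControl replicate 3 (adjusted p = 0.0483, limma), beside -0.82 for the brighter one.

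Other parts of the splicing machinery were read from a list of 140 genes, of which 129 were tested. Of these 66 were lower and 21 higher, with a median log2 difference of -0.34, against 30.1% lower and 29.5% higher of all genes tested. The same shares are the background for each sublist. Of 12 genes of the SMN complex and its partners, which load Sm proteins onto RNA, 8 fell and 1 rose. WDR77, the partner of the methyltransferase that modifies Sm tails, read 7.41, 7.44 and 7.48 in shControl and 5.11, 5.40, 5.53 and 5.66 in shBrit1. It was 4.06-fold lower (log2 difference -2.02, adjusted p = 3.49e-06, limma), and with the authors' deposited log2 values, which keep the background, the difference was -1.20. GEMIN8 read 7.36, 7.26 and 7.31 against 8.49, 8.44, 8.53 and 8.58, 2.30-fold higher. Of 11 factors of the branch point and 3′ splice site, 8 fell and 1 rose. The helicase gene DDX46 fell 2.67-fold, while SUGP1 was 1.21-fold higher, a call lost with median scaling (log2 difference -0.0064) and without shControl replicate 2 or shBrit1 replicate 1, 2 or 3.

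Of 14 genes of the U5 particle and the tri-snRNP, 8 fell and 2 rose, SNRNP40 falling 2.54-fold and PRPF6 rising 1.45-fold. In the Sm-like rings, which bind U6 and other RNAs, 6 of 12 were lower and 0 higher (10 and 1 without shControl replicate 3), with LSM6 2.08-fold lower. U1-associated and minor spliceosome genes fell in 5 of 10 and rose in 2. SNRNP25 fell 1.87-fold and ZMAT5 rose 2.44-fold, and both belong to the minor spliceosome. Without shControl replicate 3, the lowest control for both, they differed by 2.26-fold and 1.98-fold. Of 19 Prp19-related and catalytic step factors 9 fell and 4 rose, with BCAS2 2.03-fold lower and SYF2 1.89-fold higher. Of the exon junction complex and its decay partners 4 of 9 were lower and 0 higher. MAGOHB, not detected on any shBrit1 array, was at least 2.11-fold lower on the background-corrected values used here. Its log2 difference was -0.63 with the authors' deposited log2 values, which keep the background, so the bound does not hold for those. RNA-binding regulators outside the named families fell in 11 of 27 and rose in 6, with SYNCRIP, the relative of HNRNPR, 2.60-fold lower and PCBP2 1.69-fold higher.

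The partners of SR proteins divided. SR-like coactivators fell in 6 of 8 and rose in 1. TRA2B, which binds exons together with SR proteins, read 11.86, 12.01 and 12.10 in shControl and 10.41, 10.51, 10.36 and 10.44 in shBrit1, 2.95-fold lower (log2 difference -1.56, adjusted p = 2.35e-06, limma), while SRRM2, a scaffold of nuclear speckles, was 1.74-fold higher. Of 7 kinases that phosphorylate SR proteins or related factors, 4 were higher and 1 lower. SRPK1 was 11.16, 11.27 and 11.27 in shControl and 10.24, 10.46, 10.31 and 10.51 in shBrit1, 1.81-fold lower. SRPK2 was 8.10, 7.88 and 7.16 against 9.31, 8.98, 9.001 and 9.05, 2.59-fold higher and 2.14-fold without shControl replicate 3.

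The CLK kinases, named here after their values were seen, were higher for CLK1 (2.42-fold, and 1.90-fold without shControl replicate 3), CLK4 (2.18-fold) and CLK3 (1.65-fold), and CLK2 was not called (log2 difference -0.06). CLK1 read 10.24, 10.13 and 9.15 in shControl and 11.02, 11.18, 11.11 and 11.16 in shBrit1, with no overlap.

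**Figure D5:**
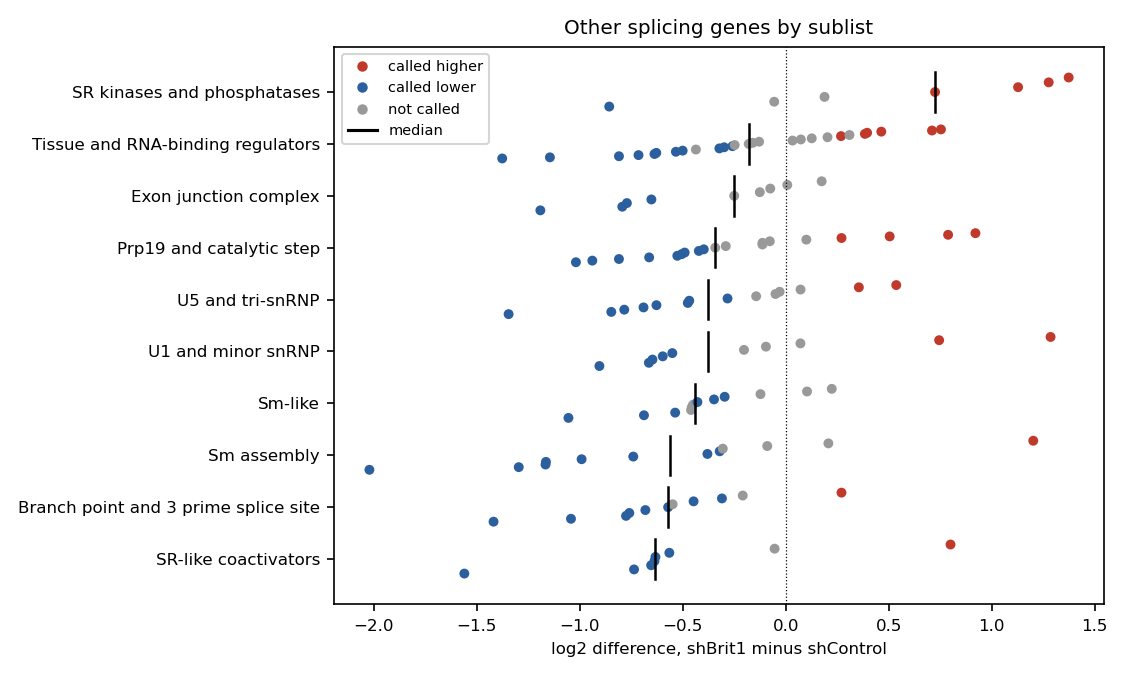
The log2 difference (shBrit1 minus shControl, horizontal axis) of the 129 other splicing genes tested, each a point, by sublist (vertical axis); blue was called lower, red higher and grey not called, and the black line is the median of the sublist. The kinases of SR proteins have a median of 0.72, and the other 9 sublists have medians below 0.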

How the data were processed

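RNA of the 7 samples was labelled with the Illumina TotalPrep kit, per the labels' protocols. The authors deposited a bead signal intensity and a detection p-value per probe and array, not normalized between arrays, and a table of log2 values, which share a median of 6.37 on every array and were used as an alternative. The scanner software and the tool behind the log2 values are not stated in the sources at hand. One line without values was left out, leaving 48701 probes, of which 24782 had 1 gene symbol in the platform annotation, 0 had several and 23919 had none. Gene identifiers were checked against RefSeq (GRCh38.p14), which changed 0 names. Groups and replicate numbers came from the sample titles.

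The signals were background-corrected and quantile-normalized with neqc of limma 3.58.1 in R 4.3.3 (offset 16, negative controls inferred from the detection p-values). The filter, blind to the groups, kept the 17967 probes detected (p below 0.05) on 3 or more arrays. Groups were compared with lmFit and eBayes, two-sided, with Benjamini-Hochberg adjustment over all kept probes. Each gene is read from its kept probe with the highest mean. Folds are linear ratios computed from the log2 differences; those given as "at least" are bounds. The members, gene lists and tests were chosen with earlier results of these data known. Genes with per-array values are the called members with the largest differences (at most 8 in each direction), the members with the largest and smallest difference of each role group, genes with probes called in opposite directions and genes detected in 1 group only. Of each sublist of other splicing genes, the gene with the largest called difference in each direction is named. Any further gene was named to complete its role group or after its values were seen. The alternatives were the background correction, the normalization, the filter, the variance model, the authors' values, the choice of probe, the replicate block and each array left out. Between 16537 and 17343 probes were detected per array, and the number of arrays limits the precision.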

Additional observations from a re-analysis of the deposited data

Results flagged for a closer look

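Within the 4 shBrit1 arrays, 1 array was flagged as apart from the other 3 in 4 of the 60 splicing factor genes. Chance gives about 1 in 20, or 3, so the count is close to that of chance. The flag weighs the gap against the range of the group and not its size in log2 units. A small gap can therefore be flagged in a tight group, as for SF3A2 below. The flag was applied to these 60 genes only. For HNRNPL, shBrit1 replicate 4 read 9.86 against 9.60 to 9.63 on the others, a gap of 0.918 of the range of the group. For SRSF6, replicate 1 read 12.00 against 12.21 to 12.24 (gap 0.839). For SNRPE, replicate 4 read 8.49 against 8.27 to 8.31 (gap 0.840), and for SF3A2 replicate 3 read 10.78 against 10.85 to 10.86 (gap 0.899). For SRSF6 and SNRPE all shBrit1 arrays still lay below all controls, and for SF3A2 all lay above them.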

How the results depend on the processing

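The count of splicing factor genes called lower was 30 to 40 in every alternative run, with 33 on all arrays. The count called higher, 6, went to 2 with median scaling, 3 with cyclic loess and 3 with no filter on dim probes, and ran from 2 to 8 when 1 array was left out (2 without shBrit1 replicate 2, 3 without shBrit1 replicate 4). Their median difference of -0.49 was -0.73 with median scaling and ran from -0.59 to -0.41 when 1 array was left out. The 21 other splicing genes called higher went to 12 with median scaling and ran from 18 to 24 when 1 array was left out, and their 66 lower from 59 to 72. Over the 21 member genes chosen by the naming rule and 17 alternatives, 307 of 354 values kept direction and call, 30 lost the call, 2 gained it and 15 changed sign. The authors' values and the run without background correction are nearly the same alternative. Both gave 3690 genes higher and 3712 lower over all genes, and 6 and 33 of the splicing factors with a median of -0.41. With median scaling the sign turned for SF3A2 (-0.049), SNRPA (-0.19), HNRNPL (-0.29), SRSF12 (-0.017) and SUGP1 (-0.0064). HNRNPL turned to -0.032 with cyclic loess and -0.057 with the replicate block, and ran from -0.10 to 0.089 when 1 array was left out, SRSF12 from -0.090 to 0.16 and SF3B3 from -0.22 to 0.050. HNRNPA1 turned to -1.71 when read from the probe with the smallest p. Same-numbered arrays of the 2 groups deviated together with correlations of 0.0967, -0.0211 and 0.0878 across probes, and shControl replicate 2 more with shBrit1 replicate 4 (0.0981), so the replicate numbers were not taken as a pairing. With the replicate block 5 splicing factor genes were higher and 32 lower, and SNRPF (adjusted p = 0.0557), SF3A2 (0.110) and SUGP1 (0.0705, limma) lost their calls. The causes were not tested. Calls of dim probes are limited by their signal over background.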
